A study of Bos taurus with 8 samples.

Results

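Translation initiation factors (EIF symbols) and elongation factors (EEF symbols) are the soluble proteins that load messenger RNA onto ribosomes, choose the start codon and move the ribosome along. The genes described here are those whose symbol in the array's annotation starts with EIF or EEF followed by a digit and that had a value on at least 7 of the 8 arrays. They number 55 symbols, read by 140 array features, of 59 symbols and 164 features of this kind on the array, and of 14453 rows tested in all. A row is either 1 gene symbol, with its features averaged, or 1 feature without a symbol. Of the 55 symbols, 54 had a value on all 8 arrays and 1, EIF4E3, on 7. EEF1A2, EIF1AY, EIF4E1B and EIF5A2 did not reach 7 arrays and have no value below.

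The cells were polymorphonuclear leukocytes (PMNL, mostly neutrophils) isolated from tail blood of 8 Holstein cows around calving. In the 45-day dry period a cow ate either a straw-rich diet of 1.34 Mcal/kg that met at least 100% of its calculated energy need, or a corn-silage diet of 1.62 Mcal/kg that met over 140%. After calving all cows ate the same lactation diet. The groups are diet M at day +7 after calving, diet S at day +7, diet M at day -14 and diet S at day -14, and the labels do not say whether M or S is the straw-rich diet. Each of the 8 arrays compared 2 RNA samples with 2 dyes, every RNA sample was used on 1 array, and the 2 arrays of a pairing carried the dyes the opposite way round.

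At day +7 the first diet array set M cow 7979 against S cow 7944, and the second set M cow 7977 against S cow 8041. At day -14 the first diet array set M cow 7979 against S cow 7631, and the second M cow 7977 against S cow 7472. The day +7 minus day -14 arrays of diet M each held 1 cow, 7821 on the first and 7973 on the second. Those of diet S crossed cows, with day +7 of cow 7631 against day -14 of cow 8041 on the first and day +7 of cow 7472 against day -14 of cow 7944 on the second. Values below are log2 ratios, diet M over diet S or day +7 over day -14, read as Cy5 over Cy3. The dye on top is not stated in the sources used here, and if it was Cy3 every sign below turns over.

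As background, initiation starts when EIF2, a GTP-binding complex of 3 kinds of subunit, brings the initiator tRNA to the small ribosomal subunit, helped by EIF1, EIF1A, EIF3 and EIF5. EIF2B recharges EIF2 with GTP, and stress kinases that phosphorylate EIF2 block that step, which lowers general translation while raising translation of a few messages such as ATF4. The EIF4 group binds the cap of the message and unwinds it, EEF1 delivers each charged tRNA and EEF2 moves the ribosome on. Mature neutrophils are short-lived cells that carry many of their proteins ready-made in granules, and they still translate messages of cytokines and survival factors when activated.

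The arrays held values for 27679 to 32580 of 43803 features, and their number and signal limit the precision. The median brightness of the members' features was 468, against 109 over all features tested, on a scale recovered from the ratios that can only understate the true signal. No row passed an adjusted p of 0.05 in any of the 5 comparisons (0% called each time, limma with Benjamini-Hochberg adjustment over all rows), so every difference below is a measured value and none is a call. Of 13 neutrophil markers 11 had values on enough arrays, with a median of 0.99 for diet M minus diet S at day +7 and 1.09 at day -14. Ratios say how 2 samples differ and not how pure either was. On single arrays the median of those markers was -0.41 and 2.62 at day +7, and 1.96 and -1.17 for day +7 minus day -14 in diet S, so the highest values lay on the arrays of cow 8041. The 6 monocyte markers measured of 7 had medians of 0.79 at day +7 and 1.15 at day -14, the 11 T and NK cell markers of 12 had 0.68 and 0.69, and the 6 B cell markers of 8 had -0.93 and -0.52. The 2 eosinophil and basophil markers measured of 7 had medians of 3.17 and 2.49, the 2 platelet markers of 6 had 1.16 and 0.64, and the 3 red cell markers of 6 had 0.82 and 0.48. The part of cell make-up in the values below was not tested, and in these bulk samples fewer cells of a type and less RNA per cell cannot be told apart.

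Between diets at day +7, most of the factors read lower in diet M. Of the 55 members, 43 had a negative difference and 12 a positive one, where 50% of all rows were negative. Their median was -0.55 with an SD over genes of 0.58, with values between -1.91 and 0.93, where all rows had a median of zero and an SD of 0.91. At an unadjusted p of 0.05, 19 members stood out, where 25.4% of all rows did. Of these 16 were negative, where 11.7% of rows were, and 3 were positive, where 13.7% were. On both arrays of the pairing 35 of 54 members were negative, against 28.4% of rows, and 4 were positive, against 27.3%. The members' median was -0.29 on the first array and -0.72 on the second, so cow 8041's array carried the wider difference.

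**Figure D1:**
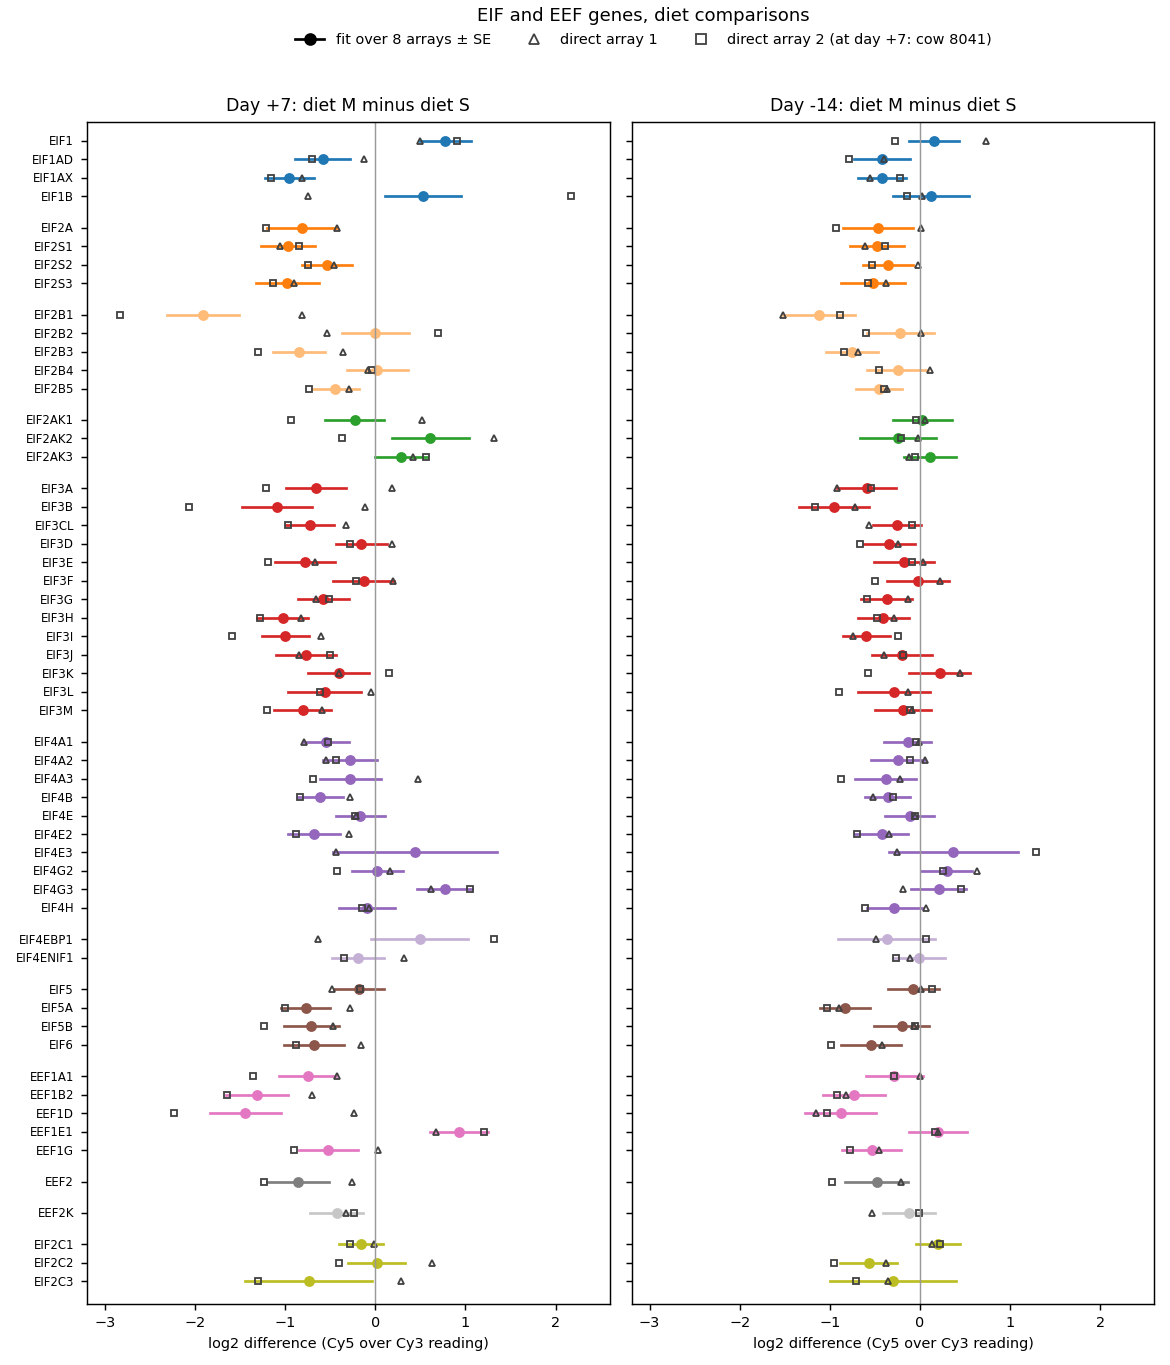
Each row is 1 of the 55 factors, grouped by complex, and the horizontal axis is the fitted log2 difference of diet M minus diet S with its standard error, at day +7 and at day -14 (triangles and squares are the first and the second array of the pairing). All 13 EIF3 and all 4 EIF2 members lie left of zero at day +7, while EEF1E1, EIF1 and EIF4G3 lie to the right.

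The 4 EIF2 members all had a negative difference between diets at both days. EIF2S1, the subunit that stress kinases phosphorylate, read -1.05 and -0.84 on the 2 arrays at day +7, and -0.61 and -0.39 at day -14. For day +7 minus day -14 it read 0.24 and -0.68 in diet M and 0.03 and 0.58 in diet S. Diet M was thus below diet S on all 4 diet arrays, while the day arrays of diet M had opposite signs. Its fitted difference at day +7 was -0.96 ± 0.30 (SE, 8 arrays, adjusted p = 0.132). EIF2S3, the subunit that holds GTP and the initiator tRNA, had -0.97 ± 0.35 at day +7 (arrays -0.91 and -1.13), and EIF2S2 had -0.53 ± 0.28 (arrays -0.46 and -0.75). EIF2A, which can deliver the initiator tRNA separately and is no subunit of the complex despite its name, had -0.81 ± 0.39. The median of the 4 was -0.89 at day +7 (SD over genes 0.21) and -0.47 at day -14 (SD 0.07). For day +7 minus day -14 the fitted median was -0.15 in diet M and 0.22 in diet S, with no member past an unadjusted p of 0.05. The arrays disagreed within each diet, with medians of 0.14 and -0.47 in diet M, where all 4 members had opposite signs on them, and of -0.28 and 0.72 in diet S. Without both arrays of cow 8041 the diet M median was 0.05, and in the values as deposited the diet S members split into 2 negative and 2 positive.

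EIF2B, the exchange factor that recharges EIF2, held the member furthest from zero. EIF2B1, its alpha subunit, read -0.82 and -2.83 at day +7 and -1.52 and -0.89 at day -14 for diet M minus diet S. Its day arrays read -0.07 and -0.63 in diet M and -0.17 and 1.39 in diet S. The 4 diet arrays were all negative, and the most negative was the one with cow 8041. The fitted difference was -1.91 ± 0.40 at day +7 (adjusted p = 0.098) and -1.12 ± 0.40 at day -14 (adjusted p = 0.716). EIF2B3 read -0.36 and -1.30 at day +7, -0.69 and -0.84 at day -14, -0.16 and 0.14 between days in diet M, and -0.45 and 0.67 in diet S. It too was negative on all 4 diet arrays, with -0.85 ± 0.29 at day +7 and -0.75 ± 0.29 at day -14. EIF2B4 read -0.08 and -0.03 at day +7, 0.12 and -0.46 at day -14, -0.48 and 0.95 between days in diet M, and -0.38 and -0.01 in diet S. In the mean of its features EIF2B4 thus showed no common direction, with a fitted 0.02 ± 0.34 at day +7. Those features disagreed on the day +7 diet arrays. The bright one (brightness 607) read -0.18 and -0.90, and the dim ones (34.4 and 34.2) read -0.38 and 0.18, and 0.32 and 0.63. EIF2B2 had 0.00 ± 0.37 at day +7. That EIF2B2 value averaged a bright feature (brightness 444), at -0.40 and -0.44, with a dim one (6.63), at -0.67 and 1.82. Among the 5 EIF2B members 3 were negative at day +7 and 5 at day -14, with medians of -0.44 and -0.46. With the brightest feature of each symbol all 5 were negative at day +7, with a median of -0.56. Without both arrays of cow 8041 all 5 were negative too, also with a median of -0.56.

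The 3 kinases measured that phosphorylate EIF2S1 had no common sign at day +7. EIF2AK2, the double-stranded RNA sensor PKR, read 1.32 and -0.36 at day +7, -0.02 and -0.21 at day -14, 1.54 and 0.33 between days in diet M, and -0.47 and 0.10 in diet S. It was higher at day +7 on both diet M arrays, at 0.80 ± 0.43 (adjusted p = 1), and its diet arrays at day +7 disagreed. On the array with cow 8041 its brighter feature read -1.21 and its dim one 0.49. On the second diet M array the brighter feature read -0.54 and the dim one 1.19, so the positive sign there rests on the dim feature. EIF2AK3, the endoplasmic reticulum stress kinase PERK, had 0.29 ± 0.29 and EIF2AK1, the haem-regulated kinase, had -0.23 ± 0.33 at day +7. EIF2AK1 read 0.51 and -0.93 at day +7, 0.06 and -0.05 at day -14, -0.21 and -0.58 between days in diet M, and -0.25 and 0.06 in diet S. Its arrays thus shared a sign only in the diet M pairing, at -0.38 ± 0.33. The median of the 3 was 0.29 at day +7 and 0.03 at day -14.

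EIF3, the scaffold of 13 measured subunits that holds the small ribosomal subunit and contacts EIF4G, was negative throughout at day +7. All 13 members were below zero there, with a median of -0.72 and an SD over genes of 0.30. On both arrays 9 of them were negative, against 28.4% of all rows. At day -14, 12 of 13 were negative with a median of -0.29 (SD 0.29), and EIF3K was the exception at 0.22. The bright EIF3K features read -0.31 and -0.13, and -0.30 and -0.36, on the day -14 arrays. A dim one (brightness 6.71) read 1.92 and -1.22, so the exception rests on it. The array medians at day +7 were -0.40 and -0.97. At an unadjusted p of 0.05 the 5 EIF3 members EIF3B, EIF3CL, EIF3H, EIF3I and EIF3M were negative at day +7, and EIF3B alone at day -14. Of all rows 11.7% passed as negative at day +7 and 3.68% at day -14.

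Among single EIF3 subunits, EIF3I read -0.60 and -1.59 at day +7 and -0.74 and -0.25 at day -14. Between days it read -0.28 and 0.80 in diet M and 0.04 and 0.88 in diet S. The 0.80 averaged a dim feature (brightness 25.9) at 2.10 with a bright one (1443) at -0.50, so its positive sign rests on the dim feature. The -0.25 averaged 0.20 for the dim feature with -0.70 for the bright one. In the mean of its features EIF3I was lower in diet M on all 4 diet arrays, with -0.996 ± 0.260 at day +7 (adjusted p = 0.113) and -0.60 ± 0.26 at day -14 (adjusted p = 0.716). EIF3H read -0.82 and -1.28 at day +7, -0.29 and -0.48 at day -14, -0.11 and -0.08 between days in diet M, and -0.03 and 0.98 in diet S. Its fitted difference was -1.03 ± 0.28 at day +7 (adjusted p = 0.120). EIF3B, a core subunit that binds many of the others, read -0.11 and -2.07 at day +7 and -0.73 and -1.17 at day -14, with -1.09 ± 0.39 and -0.95 ± 0.39. Its day arrays read -0.13 and 0.12 in diet M and -0.61 and 0.85 in diet S, and changed sign within each diet.

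EIF3E read -0.66 and -1.19 at day +7, 0.03 and -0.08 at day -14, -0.03 and 0.02 between days in diet M, and -0.48 and 1.09 in diet S. Its difference was therefore found on the day +7 diet arrays, at -0.78 ± 0.33, and lay near zero at day -14. EIF3M, which read -0.59 and -1.20 at day +7, -0.09 and -0.11 at day -14, 0.01 and 0.00 in diet M and -0.25 and 1.16 in diet S, had the same shape in the mean of its features. At day -14 the EIF3M features differed in sign, the brighter (brightness 838) at 0.21 and 0.04 and the other (544) at -0.39 and -0.25. EIF3D, EIF3F and EIF3K, at -0.16, -0.13 and -0.41, were the EIF3 members nearest zero at day +7. The bright EIF3K features read -0.83 and -0.41, and -0.76 and -0.33, on those diet arrays, and its dim one 0.40 and 1.21. EIF3CL carries the symbol of a copy of EIF3C, which RefSeq lists as its synonym, so its value of -0.72 ± 0.26 cannot be assigned to one of the copies.

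**Figure D2:**
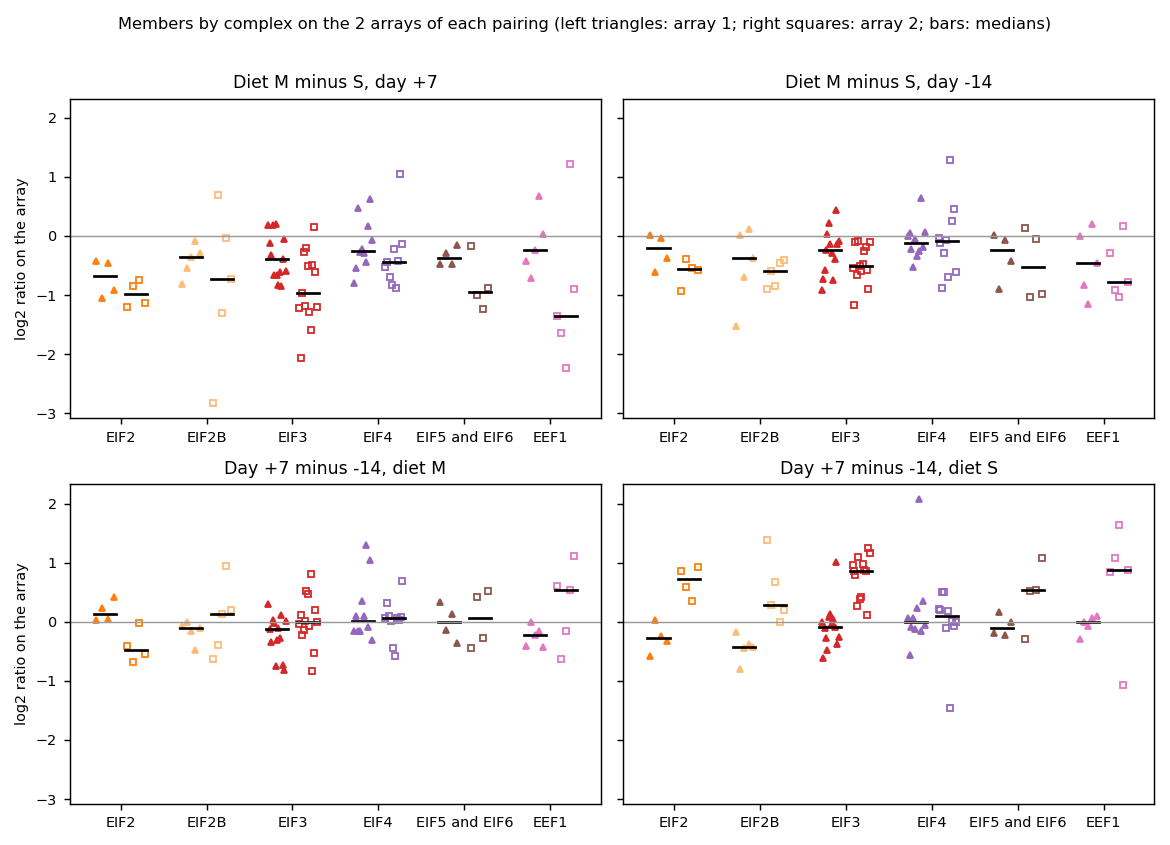
Points are members of 6 groups on the 2 arrays of each pairing (left triangles the first array, right squares the second, bars their medians), and the vertical axis is the log2 ratio of diet M over S or day +7 over -14. The EIF3 medians are -0.40 and -0.97 on the day +7 diet arrays, and -0.08 and 0.86 on the day arrays of diet S.

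The EIF4 members, which bind and unwind the capped end of the message, were less uniform. Of 10, 7 were negative and 3 positive at both days, with medians of -0.22 at day +7 and -0.19 at day -14. EIF4E, the cap-binding protein, read -0.22 and -0.23 at day +7, -0.05 and -0.06 at day -14, 0.35 and -0.44 between days in diet M, and -0.12 and -0.10 in diet S. Its mean over features was furthest from zero at -0.44 on any array, and the fitted difference was -0.16 ± 0.27 at day +7. Its features differed in sign there. The brightest read 0.59 and 0.61 on the day +7 diet arrays, and the others -0.82 and -0.64, and -0.42 and -0.66. EIF4A1, the main RNA helicase of the group, read -0.79 and -0.52 at day +7, -0.01 and -0.04 at day -14, -0.15 and 0.07 between days in diet M, and 0.07 and 0.22 in diet S. In the mean of its features EIF4A1 was lower in diet M at day +7, at -0.55 ± 0.26 (adjusted p = 0.227), and nearer zero elsewhere. Its features differed in sign at day -14, where the brighter (brightness 1498) read -0.30 and -0.27 and the other (280) 0.29 and 0.18. On the second diet M array they read -0.52 and 0.66. EIF4B, which stimulates that helicase, had -0.61 ± 0.25 at day +7 and was the EIF4 member past an unadjusted p of 0.05 on the negative side.

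EIF4G3, a scaffold that joins the cap-binding protein to EIF3, ran the other way. It read 0.62 and 1.06 at day +7, -0.18 and 0.46 at day -14, 1.04 and 0.08 between days in diet M, and 0.34 and -0.08 in diet S. The fitted difference was 0.77 ± 0.31 between diets at day +7 (adjusted p = 0.180) and 0.63 ± 0.31 between days in diet M (adjusted p = 1). The value of 1.06 is the mean of a dim feature (brightness 18.4) at 2.88 and a brighter one (165) at -0.77. The positive sign on the second day +7 array thus rests on the dim feature. On the first array the brighter feature read 0.996 and the dim one 0.24. EIF4G2, a relative that lacks the cap-binding protein's site, had 0.03 ± 0.28 and 0.29 ± 0.28 between diets at day +7 and day -14. EIF4E3, a cap-binding relative that was blank on the second day +7 diet array, was fitted on 7 arrays and had a wide error, 0.44 ± 0.91. On the first day +7 diet array it read -0.43, from features at 0.70 and -1.56, so the fitted sign was opposite to that of its direct array.

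Proteins that hold EIF4E back were measured as 2 members. EIF4EBP1, the repressor that mTORC1 switches off, read -0.64 and 1.32 at day +7, -0.49 and 0.06 at day -14, -0.37 and 1.23 between days in diet M, and 0.01 and -1.50 in diet S. Its arrays disagreed in sign in all 4 pairings, and its fitted 0.49 ± 0.54 at day +7 lay within 1 SE of zero. EIF4ENIF1, which carries EIF4E into the nucleus, had -0.19 ± 0.29.

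EIF1, which guards the accuracy of start-codon choice, was among the positive exceptions. It read 0.50 and 0.91 at day +7, 0.73 and -0.28 at day -14, 0.26 and 0.41 between days in diet M, and -0.31 and -0.58 in diet S. The fitted difference at day +7 was 0.78 ± 0.28 (adjusted p = 0.155). Its 4 features were all positive on the array with cow 8041, and on the first array they spread between -0.30 for the brightest and 2.04 for the dimmest. On the first day array of diet M only the dimmest was positive, at 1.36. EIF1AX, its partner in scanning, had the opposite sign, with -0.81 and -1.16 on the arrays and -0.95 ± 0.27 in the fit at day +7 (adjusted p = 0.122). EIF1B, a close copy of EIF1, read -0.74 and 2.18, so its 0.53 ± 0.42 had the sign of the array with cow 8041.

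The 4 members of the EIF5 and EIF6 group, which act when the ribosomal subunits join or, for EIF5A, when peptide bonds stall, were negative at both days, with medians of -0.69 and -0.37. EIF5A, the one protein modified with hypusine, read -0.28 and -1.01 at day +7, -0.90 and -1.03 at day -14, -0.13 and 0.42 between days in diet M, and 0.16 and 0.52 in diet S. It had the smallest p of all members at day -14, with -0.83 ± 0.27 (adjusted p = 0.716), beside -0.77 ± 0.27 at day +7. EIF5B, the GTPase of subunit joining, had -0.71 ± 0.30 at day +7 and -0.20 ± 0.30 at day -14.

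The elongation factor EEF1 split into subunits that read lower and 1 member that read higher. EEF1A1, the GTPase that carries charged tRNA to the ribosome, read -0.42 and -1.36 at day +7, 0.00 and -0.28 at day -14, -0.41 and 0.61 between days in diet M, and -0.29 and 0.85 in diet S. It was lower in diet M on both day +7 arrays, at -0.75 ± 0.32 (adjusted p = 0.195). EEF1B2, part of the complex that recharges EEF1A1, read -0.70 and -1.64 at day +7, -0.82 and -0.92 at day -14, 0.00 and -0.64 between days in diet M, and 0.00 and 1.08 in diet S. It was negative on all 4 diet arrays, with -1.31 ± 0.35 at day +7 (adjusted p = 0.114) and -0.73 ± 0.35 at day -14.

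EEF1D, the other exchange subunit, read -0.24 and -2.23 at day +7, -1.15 and -1.03 at day -14, -0.22 and -0.16 between days in diet M, and -0.07 and 1.63 in diet S. It was below zero on all 4 diet arrays and lowest on the one with cow 8041, with a fitted -1.44 ± 0.40 at day +7 (adjusted p = 0.120). EEF1G, the structural subunit, read 0.03 and -0.90 at day +7, -0.46 and -0.78 at day -14, -0.42 and 1.11 between days in diet M, and 0.10 and 0.88 in diet S. Its fitted difference was -0.52 ± 0.33 at day +7, -0.54 ± 0.33 at day -14 and 0.42 ± 0.33 between days in diet M, where its arrays disagreed. EEF1E1, which despite its symbol belongs to the complex of aminoacyl-tRNA synthetases, read 0.68 and 1.21 at day +7, 0.20 and 0.17 at day -14, -0.16 and 0.54 in diet M and 0.06 and -1.07 in diet S. At 0.93 ± 0.32 (adjusted p = 0.151) it was the highest member at day +7. The median of the 5 EEF1 members was -0.75 at day +7 (SD over genes 0.95, arrays -0.24 and -1.36) and -0.54 at day -14.

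EEF2, the translocase, read -0.26 and -1.23 at day +7, -0.22 and -0.97 at day -14, 0.03 and -0.30 between days in diet M, and 0.06 and 0.88 in diet S. Diet M was lower on all 4 diet arrays, with -0.86 ± 0.35 at day +7 (adjusted p = 0.181) and -0.48 ± 0.35 at day -14. EEF2K, the kinase that inactivates EEF2, read -0.32 and -0.24 at day +7, -0.53 and -0.01 at day -14, -0.19 and 0.19 between days in diet M, and 0.86 and 0.34 in diet S. It too was negative on the 4 diet arrays, at -0.43 ± 0.29 and -0.12 ± 0.29, and it was higher at day +7 on both arrays of diet S.

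The symbols EIF2C1, EIF2C2 and EIF2C3 meet the rule by their spelling, but they are the Argonaute genes AGO1, AGO2 and AGO3, whose proteins carry small RNAs. At day +7 they had -0.16 ± 0.24, 0.02 ± 0.31 and -0.74 ± 0.70, and they are counted among the 55. EIF2C1 read -0.02 and -0.28 at day +7, 0.13 and 0.23 at day -14, -0.28 and -0.31 between days in diet M, and 0.04 and 0.15 in diet S. EIF2C2 read 0.63 and -0.40 at day +7, -0.38 and -0.96 at day -14, -0.29 and 0.16 between days in diet M, and -0.80 and -0.12 in diet S. In the mean of its features EIF2C2 was thus lower at day +7 on both arrays of diet S, and EIF2C1 on both of diet M. The EIF2C2 sign in diet S was that of a dim feature (brightness 13.9) at -1.86 and -0.34. Its brighter feature (60.9) read 0.26 and 0.11 there.

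Between diets at day -14 the same side prevailed with smaller values. Of 55 members 45 were negative and 10 positive, where 51.1% of rows were negative and 48.9% positive. The median was -0.29 (SD over genes 0.32, array medians -0.22 and -0.40), at -0.50 without the first array of the pairing and -0.16 without the second. On both arrays 37 of 55 were negative, against 33.3% of rows, and 4 were positive, against 29.7%. At an unadjusted p of 0.05 the negative members were EIF2B1, EIF2B3, EIF3B and EIF5A, 4 in all. No member was positive there, and 6.07% of rows passed, 3.68% as negative and 2.39% as positive. The diet arrays of the 2 days share M cows 7979 and 7977, and both differences were fitted over the same 8 arrays, so they are given side by side and not as a repeat of each other.

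Between days the values lay nearer zero. In diet M, 32 of 55 members were negative and 23 positive, where 47.8% and 52.2% of rows were, with a median of -0.02 and an SD over genes of 0.24. Both arrays were negative for 11 members and positive for 6, where rows gave 25.1% and 22.7%, and no member passed an unadjusted p of 0.05, where 2.59% of rows did (1.65% positive and 0.948% negative). In diet S, 40 of 55 were positive and 15 negative, where 50.8% and 49.2% of rows were, with a median of 0.18 and array medians of -0.08 and 0.50. Without the second of these arrays the median was 0.01, with 29 members positive. Both arrays were positive for 15 members and negative for 5, where rows gave 19.6% and 23.4%, and no member passed an unadjusted p of 0.05, where 4.46% of rows did (0.941% positive and 3.52% negative). The EIF3 members had a median of 0.28 in diet S, from array medians of -0.08 and 0.86, and of -0.07 in diet M. The 5 members of smallest p in diet S were EIF3I at 0.56, EIF3H at 0.50, EIF2C2 at -0.56, EIF3M at 0.54 and EEF1E1 at -0.52, each with an adjusted p of 0.999.

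The interaction asks whether the difference of day +7 minus day -14 was unlike in diet M and diet S. It was negative for 38 and positive for 17 members, with a median of -0.19, where 51.1% of rows were negative and 48.9% positive. That median was -0.05 without the second day array of diet S, -0.07 without the first diet array of day -14, -0.31 without the first of day +7 and -0.36 without the second of day -14. No member passed an unadjusted p of 0.05, where 6.28% of rows did (5.44% positive and 0.844% negative). Both day arrays of diet M lay opposite to both of diet S for 4 members, where 13.8% of rows did so, and both diet arrays of day +7 lay opposite to both of day -14 for 3 members, where 4.06% did. EEF1E1 at 0.73 ± 0.37 and EIF1 at 0.63 ± 0.32 had the smallest p among members, with adjusted p of 0.830 and 0.834. EIF3H and EIF3M, both at -0.62, and EIF2AK2 at 0.85 followed.

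Of the members, 43 were read by several features, whose mean over the 2 arrays of a pairing could be compared. At day +7 the features of 12 of the 43 differed in sign. All 9 features of EEF1A1 lay between -1.07 and -0.73, all 7 of EEF2 between -0.95 and -0.33, and all 4 of EEF1G between -0.73 and -0.22. The 4 features of EIF3B shared a sign in that mean, though not on the first array, and spread from -2.27 to -0.36. The 7 of EIF4G2 spread from -0.67 to 0.31. Signs differed for 15 members at day -14, 27 between days in diet M and 13 in diet S. EIF2B1 was averaged from 1 feature.

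**Figure D3:**
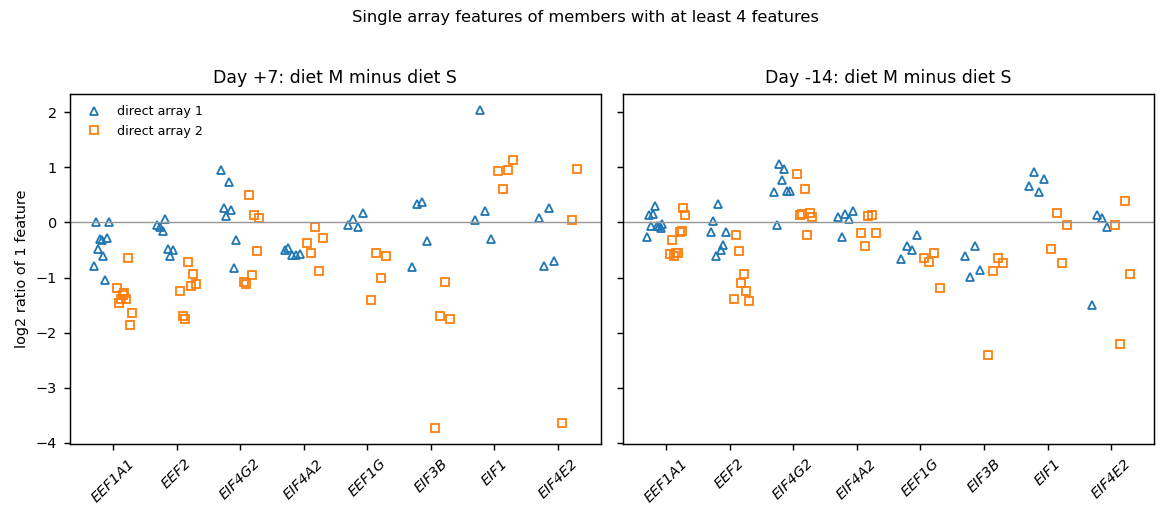
Points are single features of 8 members with at least 4 features, and the vertical axis is the log2 ratio of diet M over diet S on the first array (triangles) and the second array (squares) of day +7, left, and day -14, right. At day +7 all 7 features of EEF2 lie lower on the second array, with cow 8041, than on the first, as do those of EEF1A1 except its brightest, which reads -1.04 and -0.65, and those of EIF4G2 lie on both sides of zero.

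Cow 8041 stood on 2 arrays, the second day +7 diet array and the first day array of diet S, which had the extreme neutrophil marker medians given above. Without both arrays, 45 of 55 members were negative at day +7 with a median of -0.50, against 43 and -0.55 with them. The EIF2 median was then -0.89 and the EIF3 median -0.77, with 13 of 13 negative, while the EIF4 median was -0.09 and the EEF1 median -0.65. The number of members past an unadjusted p of 0.05 at day +7 was 1, against 19 with all 8 arrays, and over all rows it was 1345 against 3675. At day -14, 42 members were negative with a median of -0.24, and 12 were negative in diet S between days, with a median of 0.23. EIF2B1 had -1.62 ± 0.60 at day +7 without these arrays, with an adjusted p of 0.535.

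**Figure D4:**
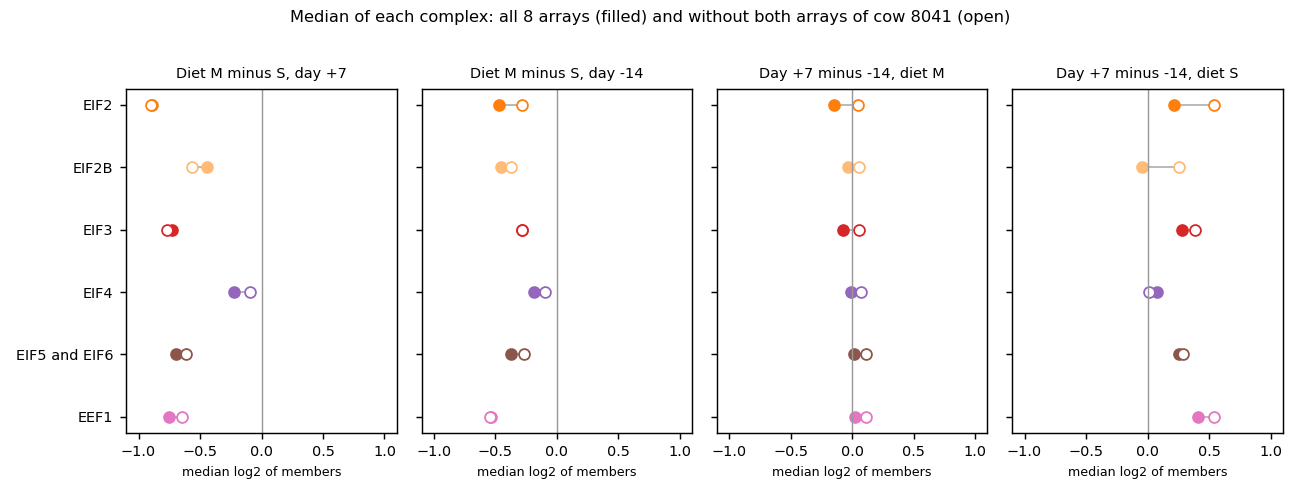
Each panel is a pairing, and the horizontal axis is the median log2 difference of the members of each of 6 groups, over all 8 arrays (filled) and without both arrays of cow 8041 (open). At day +7 the EIF2 median is -0.89 in both fits, and the EIF3 median is -0.77 without those arrays and -0.72 with them.

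Genes around the factors were read from lists chosen with earlier results of these data known, and none of their genes passed an adjusted p of 0.05. Among genes of mTORC1 and cap-binding control, 11 of 16 measured (19 listed) were negative for diet M minus diet S at day +7 with a median of -0.50, and 11 at day -14 with -0.21. On the first day +7 array 7 were negative and 9 positive with a median of 0.03, and on the array with cow 8041 14 were negative with a median of -0.73. PDCD4, an inhibitor of the helicase EIF4A, had -1.11 ± 0.42 at day +7, and MKNK1, a kinase that phosphorylates EIF4E, had 1.92 ± 0.49 from arrays of 0.40 and 3.10. In the termination and recycling list, all 7 genes measured of 8 were negative at both days, with medians of -0.87 and -0.45 (day +7 arrays -0.23 and -1.12). That list also holds EEFSEC, an elongation factor. Of its members, MCTS1 and DENR, partners in recycling, had -1.33 ± 0.40 and -1.34 ± 0.44 at day +7. All 8 mitochondrial translation factors measured of 9 were negative at both days, with medians of -0.83 and -0.43 (day +7 arrays -0.44 and -0.77).

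Of the stress genes listed as downstream of EIF2 phosphorylation, XBP1 among them, 8 of 11 measured (12 listed) were positive at both days, with medians of 0.55 and 0.33. On the first day +7 array 6 of the 11 were positive with a median of 0.17, and on the array with cow 8041 8 were, with a median of 1.59. Only 5 were positive on both. The 3 of smallest p are given here. At day +7 ATF4, the transcription factor translated under EIF2 phosphorylation, had 1.22 ± 0.38 from arrays of 0.46 and 1.72. Its targets DDIT3 and ATF3 had 1.13 ± 0.33 from arrays of 0.51 and 1.27, and 2.78 ± 0.69 from arrays of 0.70 and 5.002. Diet M was thus above diet S on both arrays for all 3 genes, with the higher value on the array with cow 8041. Of the cytosolic aminoacyl-tRNA synthetase genes, 12 of 18 measured (22 listed) were negative at both days with medians of -0.50 and -0.18. The first day +7 array was split into 9 negative and 9 positive, with a median of 0.02, and the array with cow 8041 had a median of -0.68. At an unadjusted p of 0.05, 3 of the 18 were negative at day +7, where 11.7% of all rows were, and 3 positive, where 13.7% were.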

How the data were processed

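Total RNA of blood PMNL was labelled with Cy3 or Cy5 from 200 ng and hybridised to 2-colour Agilent bovine arrays, per the labels' protocols, which give a mean RNA integrity number of 7.7 ± 0.2. The labels name no scanner, background correction or filter. The values the authors deposited are log2 ratios of the 2 channels, 1 column per array. Their column medians ran from -0.37 to 0.40, and 97.8% to 98.5% of values were ratios of whole numbers up to 10000 (tolerance 1e-09 on the log2 scale), so they were taken as not normalised. Between 25.6% and 36.8% of features were blank.

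Brightness was taken from the whole numbers of each ratio in lowest terms (geometric mean, median over arrays), and each array was corrected by loess on it (limma loessFit, span 0.4, 4 iterations). Features with a value on at least 7 of 8 arrays, 22557 in all, were averaged by platform symbol into 14453 rows, 9161 of them with a symbol. limma 3.58.1 in R 4.3.3 fitted 3 group differences and a dye term to all 8 arrays (4 residual degrees of freedom, prior 3.23). Tests are two-sided, with Benjamini-Hochberg adjustment over all rows in each comparison. The step was tested on simulated data. Figures used matplotlib 3.10.9.

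The members and all lists were chosen with earlier results of these data known. Values on every array were given for the 5 members of smallest p in each comparison, for a panel of 13 and for members named as exceptions. Replicate numbers only name the arrays and pair no samples. Cows recur between arrays, so the cow was the block of an alternative, with an estimated correlation of 0.21. Other alternatives were no or median normalisation, filters on blanks and brightness, no dye term, array weights, the brightest feature, each array left out and both arrays of cow 8041 left out. With so few cows, p-values speak only to variation among these 8 arrays. Platform symbols are those of GEO's annotation (30788 features have 1 symbol), checked against RefSeq names. Outdated symbols are given as in the platform.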

Additional observations from a re-analysis of the deposited data

Results flagged for a closer look

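For 6 members the 2 arrays of one pairing read one way and the 2 arrays of the matching pairing the other way. Between days, diet M against diet S, these were EIF1 (interaction 0.63 ± 0.32, adjusted p = 0.834), EIF2C1 (-0.36 ± 0.28, adjusted p = 0.851), EIF3K (-0.62 ± 0.39, adjusted p = 0.848) and EIF4ENIF1 (-0.19 ± 0.33, adjusted p = 0.918). EIF1 read 0.26 and 0.41 in diet M and -0.31 and -0.58 in diet S. The 0.26 averaged a dim feature (brightness 20.4) at 1.36 with brighter ones at -0.10, -0.13 and -0.08. The opposed signs of EIF1 thus rest on the dim feature. EIF3K read -0.73 and -0.54 in diet M and 1.02 and 0.11 in diet S. Between diets, day +7 against day -14, these were EIF2AK3 (0.18 ± 0.33, adjusted p = 0.923), EIF5 (-0.10 ± 0.32, adjusted p = 0.967) and EIF2C1 again, at -0.36. The brighter EIF2AK3 feature (brightness 316) read -0.66 and 0.98 at day +7, and 0.58 and -0.46 at day -14. The dim one (24.7) was positive on both day +7 arrays and read -0.83 and 0.35 at day -14. Neither feature showed the opposed signs alone. On the first day -14 array EIF5 averaged 1 feature (brightness 269) at 0.41 with brighter ones at -0.27 and -0.11. Its positive sign there rests on that feature. The interaction in limma is the test of each difference, and none of them passed it. Such opposed signs were found in 13.8% of all rows between days and in 4.06% between diets.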

How the results depend on the processing

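The members' median at day +7 between diets stayed negative under all 17 alternatives, as did the medians at day -14 and of the interaction, and 44 of 55 members kept their sign at day +7 in each of them (36 at day -14, 11 and 25 between days in diets M and S, 32 in the interaction). With the cow as replicate block, the day +7 count of rows past an adjusted p of 0.05 was 4, and the unadjusted count of members in diet S was 1. As deposited, that row count was 1, members past an unadjusted p of 0.05 numbered 11 at day +7 (3252 of all rows, against 3675 as reported), 1 at day -14 (804 rows, against 878) and 1 in diet S, and the diet M median was -0.27. The median of all rows then shifted by -0.30 in diet M and -0.24 in diet S, and the members' diet S median was -0.07, or 0.16 above all rows. Median centring gave a diet M median of 0.069. Values on all 8 arrays gave 1 row past the adjusted threshold, and a brightness of at least 64 gave 326, with EIF2B1 at an adjusted p of 0.0425 (range over its day +7 alternatives 0.0425 to 0.535). The EIF2B1 feature, at a brightness of 66.7, lay just above that cut. The brightest feature gave 29 members at day +7 (3816 rows), 1 at day -14 (851 rows) and a diet M median of -0.16. Leaving out each array in turn gave 3 to 18 members at day +7 (3, and 1604 rows, without the array of cow 8041), 0 to 6 at day -14, 0 to 1 in diet M, 0 to 2 in diet S and 0 to 1 in the interaction, and medians of -0.50 to -0.16 at day -14, -0.11 to 0.047 in diet M, 0.012 to 0.26 in diet S and -0.36 to -0.051 in the interaction. Without both arrays of cow 8041 the counts were 1 at day +7 (1345 rows), 0 at day -14 (456 rows) and 1 in diet M. The cause of these moves was not tested. Labels do not give the dye on top, and each pairing has 2 arrays.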

Other observations

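EIF2B1 has another, dim feature with values on 3 arrays, which is not in the average. It read 4.23 on the day +7 diet array with cow 8041, where the feature used read -2.83.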
